A study of Rattus norvegicus with 74 samples.

Results

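The comparison described here is that of the livers of Wistar Han rat pups given BDE-47 at 50 mg/kg with those of pups given 0 mg/kg. Its members were chosen by their labels, as the 5 arrays labelled BDE-47 50 mg/kg and the 5 labelled BDE-47 0 mg/kg, which are 10 of the 74 arrays of the series. BDE-47 is a tetrabrominated diphenyl ether, a congener of the brominated flame retardants, and is fat soluble and persistent. Dosing was by gavage, daily, to the dams from gestation day 6 to 21 and to the pups from postnatal day 12 to 21, and the left liver lobe was taken at postnatal day 22. Every BDE-47 group, the 0 mg/kg group included, is of this strain, route and schedule, and the label of the 0 mg/kg group names no vehicle. Exposure of the dam and of the pup are joined in this schedule and cannot be told apart, and neither litter nor sex is given, so p-values rest on the spread between the samples alone, which may be partly technical or shared by litter. The same study has BDE-47 at 0.1 and 15 mg/kg, the commercial pentabrominated mixture DE-71 at 50 and 0 mg/kg on the same schedule, and phenobarbital at 45 and 0 mg/kg by gavage in the same strain, for which the design text names no schedule of its own. DE-71 at 50 mg/kg has 4 arrays and each of the other groups used here has 5, and DE-71 50 mg/kg replicate 4 nearly equals replicate 5 at 15 mg/kg of DE-71 (root mean square difference 0.124 log2 units). These groups are used below only to place the 50 mg/kg response.

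RNA was measured on Affymetrix rat arrays, and the values are log2 expression per probe set after robust multi-array averaging (RMA). One unit on this scale is a doubling. The medians of the 10 arrays lay between 4.865 and 4.934 log2 units, and arrays correlated with their group at 0.9906 to 0.9943 on average. Replicates 3 and 4 at 0 mg/kg differed by a root mean square of 0.162 log2 units over the 300 most variable genes, against 0.558 to 0.901 for the other pairs within the 50 and the 0 mg/kg groups, so they were averaged and counted as 1 sample, which leaves n = 5 at 50 mg/kg and n = 4 at 0 mg/kg. Replicate 3 at 50 mg/kg differed from replicate 3 at 15 mg/kg by 0.105, the closest pair of the series, and nothing in the files says which of these doses the RNA came from. Where the number of called members of a gene list changes when 50 mg/kg replicate 3 or the averaged controls are dropped, that number is given too. Liver markers were among the brightest genes, with Alb, albumin, at 14.76 to 14.78 in the samples at 50 mg/kg and 14.71 to 14.77 at 0 mg/kg, and the transthyretin gene Ttr at 14.01 to 14.14 in the samples at 50 mg/kg and 14.02 to 14.11 at 0 mg/kg. Eif2s3y, a gene of the Y chromosome, lay between 8.84 and 9.01 at 50 mg/kg and between 8.24 and 8.87 at 0 mg/kg, so both groups carried Y-linked transcripts in every sample.

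The liver answers fat-soluble foreign compounds through a small set of receptors. The constitutive androstane receptor (CAR) and the pregnane X receptor (PXR), both partners of the retinoid X receptor, raise cytochrome P450s of the Cyp2 and Cyp3a families, transferases that attach glucuronic acid, sulfate or glutathione, and the pumps that export the products. The aryl hydrocarbon receptor (AhR) binds flat aromatic molecules such as dioxins and raises the Cyp1 family, and the transcription factor NRF2 answers to electrophiles. Several of the conjugating enzymes and pumps also handle thyroid hormone, steroids and bile acids.

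At 50 mg/kg, 334 of the 14217 genes tested rose and 239 fell (limma, adjusted p below 0.05 after Benjamini-Hochberg adjustment over all genes), or 2.35% and 1.68% of them and 4.03% in all. Counts of called members in the gene lists below stand beside these shares. The rises were larger than the falls: 154 genes rose and 104 fell at least 1.5-fold, 60 and 28 at least 2-fold, 15 and 5 at least 4-fold, and 5 and 0 at least 8-fold. Of the called genes 468 had no overlap between the groups, 285 risen and 183 fallen, where 4.23% of all genes had all samples at 50 mg/kg above and 4.2% had them all below those at 0 mg/kg. Leaving out 1 sample at a time gave at fewest 359 genes, when the averaged controls were dropped, and at most 615, when control replicate 5 was, and 237 genes, 155 risen and 82 fallen, were called in all 9 of these fits. Without 50 mg/kg replicate 3, the array nearly equal to one of the 15 mg/kg group, 468 genes were called, 443 of them among the original 573.

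The largest rise was that of a cytochrome P450. Cyp2c7, a P450 that hydroxylates steroids and retinoids, stood at 13.67, 13.41, 13.42, 13.40 and 13.54 log2 units in the samples at 50 mg/kg, against 8.16, 8.22, 8.02 and 10.09 at 0 mg/kg. All 5 exposed samples lay within a narrow band above every control, and the control that stood apart, replicate 5, was still below them. The log2 fold change was 4.87 (SE 0.68, adjusted p = 1e-06), a 29.2-fold rise. Ces2c, a carboxylesterase that cleaves ester drugs, stood at 11.78, 11.89, 11.77, 12.09 and 12.08 at 50 mg/kg, against 8.22, 8.22, 7.90 and 7.91 at 0 mg/kg. Its groups were apart by far more than their spread, and its rise of 3.86 (SE 0.25, adjusted p = 1.5e-18), or 14.5-fold, had the smallest standard error among the 4 largest rises. Cyp2a3, a further P450, rose by 4.51 (SE 0.56, 10.60 ± 0.52 against 6.10 ± 0.92, SD) and Cltrn, which encodes collectrin, a membrane protein of amino acid transport, rose by 4.28 (SE 0.40, 7.22 ± 0.62 against 2.95 ± 0.26). Cltrn at 0 mg/kg lay below the median of the arrays, near the dim end of the scale. Zdhhc2, a palmitoyltransferase gene, stood at 7.90, 7.99, 7.76, 8.13 and 8.05 at 50 mg/kg, against 5.23, 5.33, 4.98 and 6.19 at 0 mg/kg, and rose by 2.53.

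**Figure D1:**
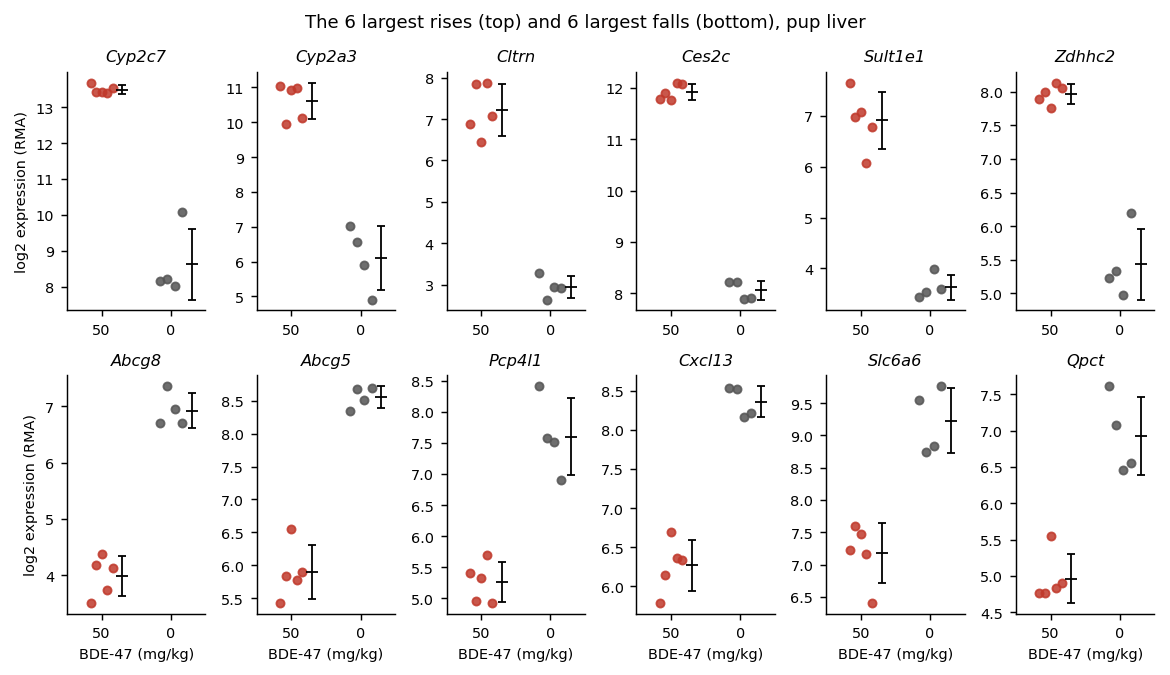
Log2 expression (RMA) in each sample at 50 mg/kg (red, left) and 0 mg/kg (grey, right) for 6 risen and 6 fallen genes of greatest change among those called with no overlap of the groups, a choice that makes the separation part of the selection; the bars are the mean and SD (n = 5 and 4). The Cyp2c7 samples at 50 mg/kg lie between 13.40 and 13.67 and those of Abcg8 between 3.51 and 4.38.

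Most CAR and PXR targets rose, with 16 of the 21 measured risen and 0 fallen. Their median log2 fold change was 0.98 beside -0.016 over all genes, with a range of -0.42 to 4.87. Their summed level on the linear scale was 104463 to 111555 at 50 mg/kg and 47935 to 53646 at 0 mg/kg. Both leaving out 50 mg/kg replicate 3 and leaving out the averaged controls gave the same counts, 16 and 0. Cyp3a23-3a1, the main inducible P450 of drug oxidation in rat liver, stood at 13.82, 13.77, 13.69, 13.76 and 13.85 at 50 mg/kg, against 12.66, 13.02, 12.94 and 12.96 at 0 mg/kg (log2 fold change 0.89, SE 0.12, adjusted p = 1.3e-07). Cyp2c6v1, already bright in the controls, rose by 0.76 (SE 0.09), and Cyp2c11, whose adult expression in rats is male specific, rose as well (8.10 ± 0.58 against 6.09 ± 0.56, adjusted p = 0.00047). Of 22 measured Cyp2 genes outside the Cyp2b family 5 rose and 0 fell (4 rose when the averaged controls were dropped), and of the 14 Cyp3a and Cyp4 genes 3 rose and 1, Cyp4f6, fell (-0.57). Cyp2b1 and Cyp2b2, the classic CAR targets of rat liver, share 1 probe set and entered no count. The other Cyp2b genes on the CAR and PXR list were measured, and none of them was called.

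Both Cyp2c7 and Cyp3a23-3a1, and the sulfotransferase gene Sult1e1 described below, carry the letters AGGTCA, a core motif bound by CAR, PXR and many other nuclear receptors, within the 300 bases around their start (RefSeq, rat build GRCr8, 250 bases before to 50 after the gene start). These windows were picked among risen genes that hold the motif, which most risen genes do not. The motif is in capitals, written TGACCT where it lies on the opposite strand. The windows are chr1:247966144-247966443 on the plus strand, chr12:14398754-14399053 on the minus strand and chr14:20701230-20701529 on the plus strand, and the motif begins 167, 164 and 139 bases before the gene start.
Cyp2c7: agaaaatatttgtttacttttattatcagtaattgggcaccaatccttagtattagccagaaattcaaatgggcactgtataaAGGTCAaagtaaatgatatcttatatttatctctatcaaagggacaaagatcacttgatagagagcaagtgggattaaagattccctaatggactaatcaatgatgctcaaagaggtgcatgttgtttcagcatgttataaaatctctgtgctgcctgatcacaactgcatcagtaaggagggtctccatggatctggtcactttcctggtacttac
Cyp3a23-3a1: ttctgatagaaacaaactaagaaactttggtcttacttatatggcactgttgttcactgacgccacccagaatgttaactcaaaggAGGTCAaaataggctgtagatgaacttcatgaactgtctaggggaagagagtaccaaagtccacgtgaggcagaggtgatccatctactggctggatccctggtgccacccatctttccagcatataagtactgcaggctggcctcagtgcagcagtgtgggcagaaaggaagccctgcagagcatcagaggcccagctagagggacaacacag
Sult1e1: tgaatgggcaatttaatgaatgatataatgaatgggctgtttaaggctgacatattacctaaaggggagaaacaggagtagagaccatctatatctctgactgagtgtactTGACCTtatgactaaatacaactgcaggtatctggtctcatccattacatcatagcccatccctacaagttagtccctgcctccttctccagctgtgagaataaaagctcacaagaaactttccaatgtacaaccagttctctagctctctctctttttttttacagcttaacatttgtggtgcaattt
These 6 letters are common: on either strand they are in 16.2% of all 33469 windows and in 12.7% of the windows of the 11733 tested genes that have one. They are in 45 of the 291 risen genes with a window (15.5%) and in 38 of the 199 fallen ones (19.1%). The AhR core GCGTG is in 47.1% of the risen, 45.2% of the fallen and 45.8% of the tested genes' windows (29.7% of all windows), and the antioxidant response element core, searched by its letters on both strands, in 6.19%, 8.54% and 5.13% (3.99% of all). These are matches of letters in a short window, given as a description.

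P450s need heme and electrons. Of 17 genes of heme turnover and electron supply 5 rose and 0 fell: 1 of 7 of heme synthesis, 3 of 6 of electron supply and 1 of 4 of heme breakdown. Alas1, the first and limiting enzyme of heme synthesis, stood at 12.49, 12.11, 12.37, 12.09 and 12.15 at 50 mg/kg, against 10.29, 10.49, 11.10 and 11.13 at 0 mg/kg. The groups were separate, and the rise was 1.49 (SE 0.24, adjusted p = 9.8e-06). Por, the reductase that passes electrons to every microsomal P450, rose by 0.95 (9.77 ± 0.45 against 8.83 ± 0.06), Cyb5a, cytochrome b5, by 0.35 and Pgrmc1, a heme-binding partner of P450s, by 0.36, and Blvrb, biliverdin reductase B of heme breakdown, by 0.57.

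Conjugating enzymes rose beside the P450s. Of 11 glucuronosyltransferase and sugar supply genes 5 rose and 0 fell (median 0.47), and 4 rose when the averaged controls were dropped. Ugt2b1 stood at 13.45, 13.37, 13.43, 13.41 and 13.28 at 50 mg/kg, against 12.47, 12.35, 12.46 and 12.19 at 0 mg/kg, a doubling with no overlap (1.02, SE 0.13, adjusted p = 3.6e-08), and Ugt2b10, Ugt2b35 and Ugt2a1 rose by 0.78, 0.47 and 1.12. Of 20 glutathione S-transferases 7 rose and 0 fell (median 0.45), led by Gstt3 (0.99, SE 0.15), Mgst2 (0.76) and Gsta4 (0.73). Of 16 sulfotransferase and sulfate supply genes only 2 passed the test, and both by a wide margin. Sult1e1, the estrogen sulfotransferase, stood at 7.64, 6.97, 7.07, 6.07 and 6.78 at 50 mg/kg, against 3.43, 3.53, 3.99 and 3.59 at 0 mg/kg (3.27, SE 0.63, adjusted p = 0.00031). Every control lay below the array median and every exposed sample above it. Sult1b1, which sulfates thyroid hormones and small phenols, rose by 2.27 (12.42 ± 0.36 against 10.15 ± 0.49).

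Of 27 export pumps and uptake transporters 3 rose and 1 fell, beside 2.35% and 1.68% of all genes, and 4 rose when 50 mg/kg replicate 3 was dropped. The risen ones are pumps: Abcc3, which exports conjugates to the blood (1.72, SE 0.25), Abcc2, which exports them to bile (1.09, SE 0.20), and Abcb1a, the P-glycoprotein of drug export (0.98, SE 0.23). The one that fell, Slc6a6, takes up taurine, the amino acid to which rats couple bile acids. It stood at 7.22, 7.60, 7.47, 7.17 and 6.41 at 50 mg/kg, against 9.54, 8.75, 8.84 and 9.76 at 0 mg/kg (-2.05, SE 0.44, adjusted p = 0.0017).

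NRF2 and AhR targets moved in part. Of 22 NRF2 targets 5 rose and 0 fell (median 0.43), among them Ephx1, microsomal epoxide hydrolase (1.52, SE 0.28), Me1, malic enzyme (1.86, SE 0.39), and Gpx2, a glutathione peroxidase (2.65, SE 0.57). Ephx1 and the pump gene Abcc3, also among the 5, are on the CAR and PXR list as well. Gpx2 stood at 7.70, 7.12, 7.31, 8.07 and 4.95 at 50 mg/kg, against 4.22, 5.07, 4.27 and 3.95 at 0 mg/kg: replicate 5 at 50 mg/kg was at the level of the controls, and the groups overlap. Nqo1, the quinone reductase that both NRF2 and AhR raise, stood at 10.30 ± 0.65 against 10.21 ± 0.64 (0.08, interval -0.67 to 0.83). Of 11 AhR targets 2 rose and 0 fell, with a median of -0.02, and 1 rose when the averaged controls were dropped. Cyp1a1 stood at 11.65, 11.35, 11.42, 12.02 and 11.60 at 50 mg/kg, against 8.97, 10.84, 9.55 and 8.66 at 0 mg/kg (2.11, SE 0.60, adjusted p = 0.029). The exposed samples were close together while the controls spread over more than 2 log2 units, and the call was kept in 3 of 9 fits with 1 sample left out (adjusted p up to 0.11, without 0 mg/kg replicate 1). The other AhR-driven P450s did not pass the test: Cyp1a2 stood at 12.77 ± 0.17 against 13.03 ± 0.20 (-0.26, interval -0.60 to 0.08) and Cyp1b1 at a dim 4.67 to 4.98 against 4.79 to 5.11. Inmt, an indole methyltransferase gene and the other risen member, rose by 1.59. It rose by 2.15 with phenobarbital at 45 mg/kg and by 1.58 with DE-71 at 50 mg/kg, each against its own 0 mg/kg group.

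**Figure D2:**
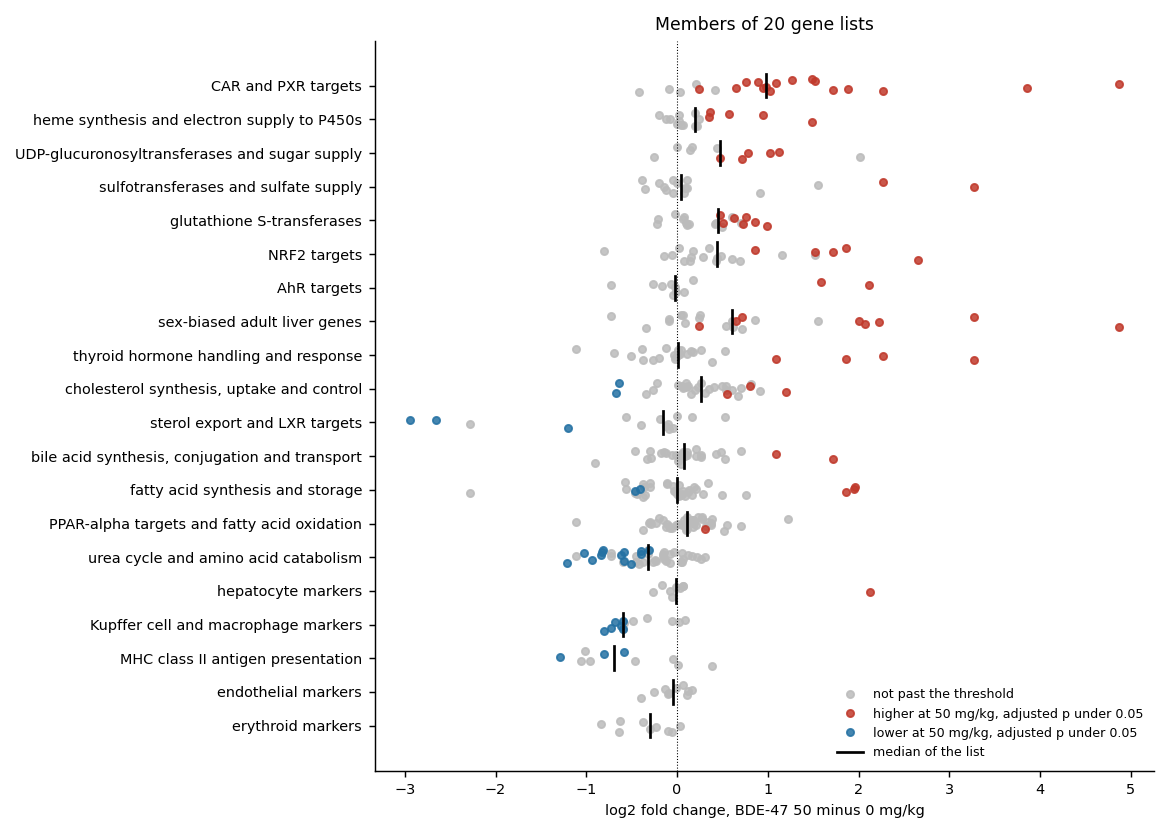
Log2 fold change of each measured member of 20 gene lists, BDE-47 50 minus 0 mg/kg, with members that passed the adjusted p threshold in red (higher) or blue (lower) and the list's median as a black bar; vertical scatter within a row is only for legibility. CAR and PXR targets lie to the right with a median of 0.98, and the lists of amino acid catabolism, macrophage markers and MHC class II lie to the left with medians of -0.32, -0.60 and -0.69.

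The largest falls were in the 2 genes of the sterol exporter. Abcg5 and Abcg8 encode the partner subunits of a transporter that moves cholesterol and plant sterols from hepatocytes into bile, and both are targets of the liver X receptor (LXR). Abcg8 stood at 3.51, 4.18, 4.38, 3.73 and 4.13 at 50 mg/kg, against 6.70, 7.36, 6.95 and 6.70 at 0 mg/kg (-2.94, SE 0.43, adjusted p = 2.3e-06). Every exposed sample was below the median of its array, at levels where a probe set may be near background. Abcg5 stood at 5.43, 5.83, 6.55, 5.77 and 5.90 at 50 mg/kg, against 8.34, 8.68, 8.52 and 8.69 at 0 mg/kg (-2.66, SE 0.42, adjusted p = 8.5e-06). In Abcg5 and in Abcg8 the highest of the exposed samples was replicate 3, the one that nearly equals an array labelled 15 mg/kg.

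The pair lie head to head on rat chromosome 6, and their windows cover the same bases, which are shown because both genes fell together. The window of Abcg5 is chr6:15717686-15717985 on the plus strand and that of Abcg8 is chr6:15717681-15717980 on the minus strand (GRCr8). The capitals mark the 205 bases between the start of Abcg8, at 15717730, and that of Abcg5, at 15717936, which both genes share upstream of their starts.
Abcg5: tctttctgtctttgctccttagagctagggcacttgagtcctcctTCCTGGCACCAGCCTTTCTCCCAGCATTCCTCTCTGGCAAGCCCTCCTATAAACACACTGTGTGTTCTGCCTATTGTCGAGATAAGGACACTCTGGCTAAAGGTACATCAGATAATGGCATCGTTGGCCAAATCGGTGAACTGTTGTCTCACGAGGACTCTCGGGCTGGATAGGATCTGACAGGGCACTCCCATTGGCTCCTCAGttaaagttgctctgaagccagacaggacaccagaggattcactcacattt
Neither window holds the nuclear receptor motif, the AhR core or the antioxidant response element core, on either strand, which says only that they are not in this stretch.

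Of 14 genes of sterol export and LXR control 0 rose and 3 fell, with a median of -0.16. The third, Pltp, encodes the phospholipid transfer protein of plasma lipoproteins. It stood between 6.76 and 7.61 at 50 mg/kg, against 7.67 to 8.63 at 0 mg/kg (-1.20, SE 0.20, adjusted p = 2.1e-05), and control replicate 5 came within 0.06 log2 units of the highest exposed sample. Scd, stearoyl-CoA desaturase and also an LXR target, was low on average without passing the test (6.30 ± 0.68 against 8.57 ± 0.90, adjusted p = 0.067). Of 29 genes of cholesterol synthesis, uptake and control 3 rose and 2 fell, with a median of 0.26, and 2 rose when 50 mg/kg replicate 3 or the averaged controls were dropped. Msmo1 and Sc5d, enzymes of the late sterol pathway, rose by 1.20 and 0.55, and Insig2, which holds back the pathway's regulator SREBP2, by 0.80, whose call was kept in 2 of 9 fits with 1 sample left out and that of Msmo1 in 5. Scarb1, the receptor that takes up cholesterol from high-density lipoprotein, fell (-0.64, SE 0.14), as did Scap, the escort protein of SREBP2 (-0.67, SE 0.15), but a second probe set of each, at -0.32 and -0.17, was not called. Of 30 genes of bile acid synthesis, conjugation and transport only the pumps Abcc2 and Abcc3 rose and 0 fell. Over all genes tested 2.35% rose and 1.68% fell. Cyp7a1, which starts the conversion of cholesterol to bile acids, stood at 9.24 to 10.11 in the exposed samples and 8.81 to 9.37 in the controls (0.53, interval -0.37 to 1.43, adjusted p = 0.65).

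Genes of fat handling moved in both directions. Of 37 genes of fatty acid synthesis and storage 3 rose and 2 fell, with a median of 0.00. Lpl, lipoprotein lipase, which is high in newborn and low in adult rat liver, stood at 10.05, 10.37, 11.03, 10.60 and 10.66 at 50 mg/kg, against 8.64, 9.05, 8.06 and 8.58 at 0 mg/kg (1.96, SE 0.33, adjusted p = 2.6e-05). Cidea, a lipid droplet protein, rose by 1.95 (SE 0.31) and Me1, which makes NADPH for fat synthesis, is the third, while Dgat2, the last step of triglyceride synthesis, and Lipc, hepatic lipase, fell (-0.41, SE 0.10, and -0.46, SE 0.12). Apoa2, an apolipoprotein of high-density lipoprotein, was the one of 9 hepatocyte markers that passed the test, at 12.24 ± 0.26 against 10.11 ± 0.78 (2.13, SE 0.40), and the list's median was -0.01. Among 44 PPAR-alpha targets and genes of fatty acid oxidation 1 rose, Hsd17b4 (0.31), and none rose or fell without 50 mg/kg replicate 3. The share over all genes was 2.35% risen, near that of this list, and 1.68% fallen. Of 32 genes of glucose, glycogen and fructose metabolism 0 rose and 3 fell, the triokinase gene Tkfc (-1.07), pyruvate carboxylase Pc (-0.46) and the glucose transporter Slc2a2 (-0.47), and a second probe set of Tkfc stood at -0.10. When 50 mg/kg replicate 3 was dropped 1 gene of the list rose and 2 fell, and when the averaged controls were dropped 1 fell. With 1 sample left out, the call of Slc2a2 was kept in 2 of 9 fits and that of Pc in 4.

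Amino acid catabolism was the list with the most falls. Of 43 measured genes of the urea cycle and amino acid breakdown 13 fell and 0 rose, with a median of -0.32, and there were 14 falls when 50 mg/kg replicate 3 was dropped and 10 when the averaged controls were. Hal, histidine ammonia-lyase, stood at 8.06, 7.74, 7.78, 7.29 and 7.06 at 50 mg/kg, against 8.72, 8.27, 8.78 and 9.41 at 0 mg/kg (-1.21, SE 0.23, adjusted p = 0.00031). Agxt, which detoxifies glyoxylate by turning it into glycine, stood at 9.58, 9.61, 9.42, 9.06 and 9.16 at 50 mg/kg, against 10.45, 10.07, 10.14 and 10.17 at 0 mg/kg (-0.84, SE 0.16, adjusted p = 3e-04). In neither gene did the groups overlap. Glul, glutamine synthetase, which in liver is confined to the cells around the central vein, stood at 10.74, 10.16, 10.39, 10.76 and 10.12 at 50 mg/kg, against 11.37, 11.41, 11.21 and 11.02 at 0 mg/kg (-0.82, SE 0.17, adjusted p = 0.00078). Other probe sets of Glul stood at -0.72 and -0.22, and only 1 of them was called. The consecutive urea cycle enzymes Ass1 and Asl fell by 0.94 (SE 0.22) and 0.58 (SE 0.12, and -0.48 in a second probe set of Asl, not called). The proline dehydrogenase genes Prodh and Prodh2 fell by 1.03 (-0.19 in a second probe set of Prodh, not called) and 0.51, and Gls2, liver glutaminase, by 0.62. The methionine pathway had 4 fallen members, Mat1a, Gnmt, Cbs and Cdo1 (-0.31, -0.83, -0.58 and -0.40), and the last, Sdsl, a serine dehydratase-like gene, fell by 0.40. The other urea cycle members, Cps1, Otc, Arg1, Nags and Slc25a15, lay between -0.26 and -0.12 and did not pass the test.

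Macrophage genes were lower in the exposed livers. Of 13 markers of Kupffer cells, the resident macrophages of the liver, 6 fell and 0 rose, with a median of -0.60, and there were 4 falls when 50 mg/kg replicate 3 was dropped and 7 when the averaged controls were. Their summed level on the linear scale was 3780 to 5068 at 50 mg/kg and 5281 to 7444 at 0 mg/kg. Clec4f, a lectin found on Kupffer cells, stood at 9.35, 9.31, 8.86, 9.51 and 9.14 at 50 mg/kg, against 10.11, 10.22, 10.05 and 9.76 at 0 mg/kg (-0.80, SE 0.20, adjusted p = 0.0098). Csf1r, the receptor for the growth factor that macrophages need to survive, stood at 7.45, 7.39, 7.14, 7.48 and 6.80 at 50 mg/kg, against 8.17, 8.21, 7.59 and 7.75 at 0 mg/kg (-0.68, SE 0.17, adjusted p = 0.01). C1qa and C1qc, chains of complement C1q that macrophages make, fell (-0.60 and -0.73, SE 0.15 each). Without 0 mg/kg replicate 2 the call of Csf1r was lost (adjusted p = 0.07), and those of Clec4f (0.048), C1qa and C1qc were kept. Over the 9 fits with 1 sample left out Csf1r was called in 6 and C1qa in 8, lost without 50 mg/kg replicate 5 (adjusted p = 0.054). The other fallen markers were Cd68 and Cd163, while Mrc1, which endothelium also makes in liver, stood at 0.09 and Lyz2 at -0.06. In whole liver RNA, fewer macrophages and less of these transcripts per macrophage cannot be told apart.

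Genes of antigen presentation were lower in the same samples. Of 10 MHC class II genes 3 fell and 0 rose, with a median of -0.69, and 4 fell when the averaged controls were dropped. Cd74, the invariant chain, stood at 7.27, 7.26, 6.96, 7.78 and 6.94 at 50 mg/kg, against 8.68, 9.70, 7.95 and 7.78 at 0 mg/kg (-1.29, SE 0.34, adjusted p = 0.017). Replicate 4 at 50 mg/kg and replicate 5 at 0 mg/kg met at the edge of the groups, and without 0 mg/kg replicate 2, the highest control, the call was lost (adjusted p = 0.19). Ctss, the protease that trims the invariant chain, fell (-0.80, SE 0.17, adjusted p = 0.002), as did RT1-DMb, which helps load peptides (-0.59, SE 0.16). Of 28 chemokine genes 2 fell, Ccl6 (-0.83) and Cxcl13, which attracts B cells (6.26 ± 0.33 against 8.36 ± 0.20, -2.10, SE 0.43), and 1 fell when 50 mg/kg replicate 3 was dropped. Complement factor D, Cfd, and the ficolin gene Fcna, which Kupffer cells express, fell (-0.84 and -0.76). The lectin pathway protease Masp1 fell as well (-0.45, with other probe sets at -0.30 and -0.20, not called). These were among 40 coagulation and complement genes, of which 1, the protein S gene Pros1, rose (0.54). There were 2 falls when the averaged controls were dropped. Of all genes tested 1.68% fell and 2.35% rose. Without 0 mg/kg replicate 2 the calls of RT1-DMb, Ccl6, Cfd and Fcna were lost as well (adjusted p = 0.15, 0.11, 0.12 and 0.077), while that of Ctss was kept (0.035). Of the markers of other cells of blood, vessel and stroma, 0 of 14 lymphocyte, 0 of 5 neutrophil, 0 of 10 endothelial, 0 of 12 stellate and 0 of 9 erythroid markers were called, with medians of -0.08, -0.11, -0.05, -0.10 and -0.30. The summed level of the erythroid list was 9902 to 12866 at 50 mg/kg and 10911 to 13763 at 0 mg/kg. Whether other blood cells took part in the macrophage result was not tested.

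**Figure D3:**
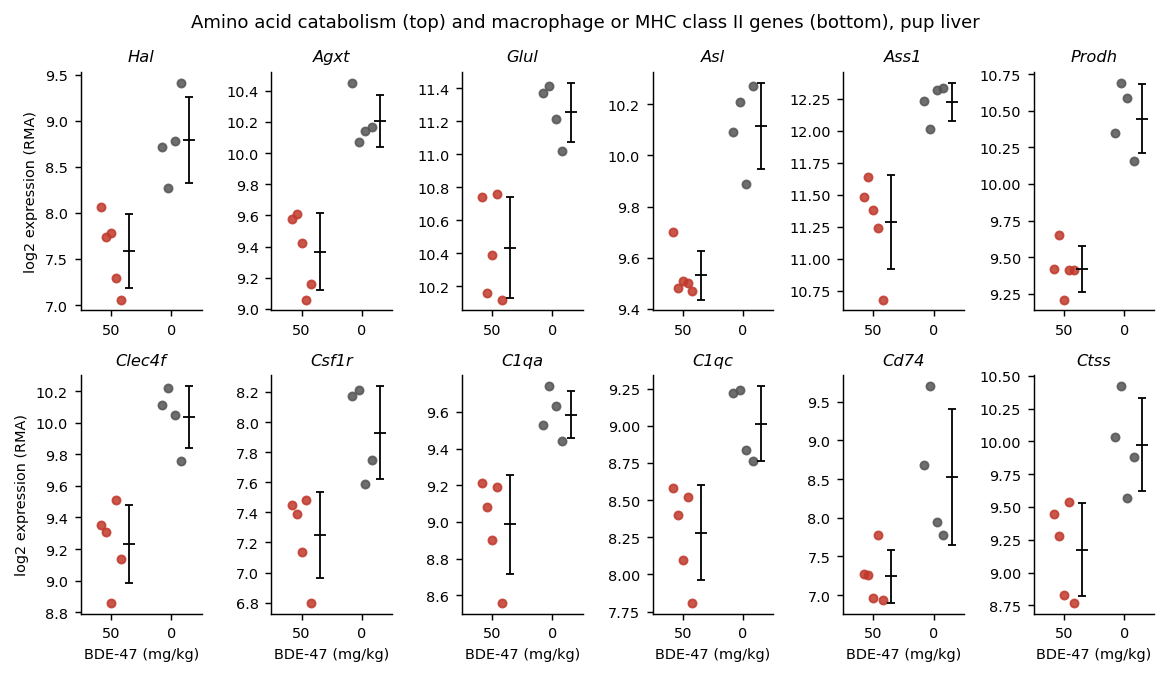
Log2 expression (RMA) in each sample at 50 mg/kg (red, left) and 0 mg/kg (grey, right) for 6 genes of amino acid catabolism (top) and 6 macrophage or MHC class II genes (bottom), with mean and SD (n = 5 and 4). In Clec4f the samples at 50 mg/kg lie between 8.86 and 9.51, below all 4 controls at 9.76 to 10.22.

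Among secreted liver proteins, A2m, alpha-2-macroglobulin, a protease inhibitor of the rat acute phase, stood at 8.43, 9.64, 9.52, 9.97 and 9.22 at 50 mg/kg, against 11.78, 10.76, 11.12 and 10.97 at 0 mg/kg (-1.80, SE 0.34, adjusted p = 0.00019). Serpina3n fell too (-0.73, SE 0.15) and Cd14, a receptor for bacterial lipopolysaccharide, rose (0.90, SE 0.25), out of 28 acute phase genes, and 0 rose when the averaged controls were dropped. Among all genes 2.35% rose and 1.68% fell. Further large falls were in Pcp4l1 (5.26 ± 0.32 against 7.60 ± 0.62, -2.34, and -2.64 in its second probe set), in Qpct, glutaminyl cyclase (-1.96), in Mmd2 (-1.93) and in Qsox1, a sulfhydryl oxidase gene (-1.72, and -1.03 in its second probe set, not called). In each of them the groups were separate, as their selection required.

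Genes of hormone handling moved in both directions. Of 25 genes of thyroid hormone handling and response 4 rose and 0 fell, namely Sult1b1, Sult1e1, Abcc2 and Me1, 3 of which conjugate or export and the last of which is a classic response gene. The median of the list was 0.01. The counts in this paragraph stand beside 2.35% risen and 1.68% fallen over all genes. Dio1, the deiodinase that thyroid hormone raises, stood at 7.10 ± 0.62 against 6.92 ± 0.21 (0.18, interval -0.44 to 0.80), Thrsp, another response gene, stood at 0.04 and Ttr, a carrier, at -0.01. Of 27 genes of steroid metabolism Sult1e1 and Pgrmc1 rose and 3 fell: Cyp17a1, steroid 17-alpha-hydroxylase, which young rat liver expresses (11.10 ± 0.36 against 12.00 ± 0.08, -0.90), Hsd17b6 (-1.19) and Hsd17b13 (-0.42). When the averaged controls were dropped 1 gene of the list fell, with Cyp17a1 at adjusted p = 0.082 and Hsd17b6 at 0.069, and with 1 sample left out the Cyp17a1 call was kept in 1 of 9 fits. Of 32 genes of retinoid metabolism 2 rose, Aldh1a1, which makes retinoic acid (13.07 ± 0.04 against 11.19 ± 0.10, 1.88, SE 0.16, adjusted p = 9.5e-14), and Rbp2, a retinol-binding protein (1.21), and 0 fell (1 when the averaged controls were dropped).

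Among 23 genes whose adult rat liver levels differ by sex 8 rose and 0 fell, with a median of 0.60. They include genes of both kinds, Cyp2c11 and Cyp3a2 of the male pattern and Cyp2c7 of the female pattern, and Cyp2c7, Cyp3a2 and Cyp3a9 are on the CAR and PXR list as well. Hao2, an oxidase of hydroxy acids, stood at 6.69, 6.73, 6.54, 5.00 and 5.43 at 50 mg/kg, against 3.55, 4.11, 3.87 and 3.87 at 0 mg/kg (2.23, SE 0.39, adjusted p = 5.8e-05). Ust5r, Cyp2a1 and Sult1e1 are the other risen members, and without the averaged controls 6 genes of the list rose. Xist, which is made from the inactive X chromosome, lay below the array median in every sample of both groups.

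Lists of growth and stress are set beside the 4.03% of all genes that were called. Of 55 cell cycle genes 1 fell, Ccnd1, cyclin D1 (6.82, 7.25, 8.22, 7.79 and 8.06 at 50 mg/kg, against 8.31, 9.09, 8.97 and 9.39 at 0 mg/kg, -1.31, SE 0.35), with other probe sets at -1.11 and -1.08, and the median was 0.03. Of 25 p53 targets and DNA damage genes 3 rose and 2 fell, and 1 fell when the averaged controls were dropped. Mdm2 (0.72), Gadd45b (1.27), also a CAR target, and Plk2 (0.52) were higher. Rprm, reprimo (-1.21), and Sesn2 (-0.57, and -0.30 in a second probe set, not called) were lower. Of 47 genes of the unfolded protein and integrated stress responses 0 rose and 3 fell, Nupr1 (7.26 ± 0.22 against 8.65 ± 0.10, -1.39), Sesn2 and Hspb1. This became 2 falls when 50 mg/kg replicate 3 was dropped and 1 when the averaged controls were (Sesn2 adjusted p = 0.13, Hspb1 0.062). Of 22 fetal and neonatal liver genes 0 passed the test, and 1, Igfbp2, fell when 50 mg/kg replicate 3 was dropped (adjusted p = 0.04, against 0.067 with it). Afp, alpha-fetoprotein, stood at 11.83 ± 0.61 against 12.72 ± 0.30 (-0.88, interval -1.62 to -0.15, adjusted p = 0.19), and 8 of the 22 members had a fold change above 0. Epcam, an adhesion protein of bile duct and progenitor cells, was the only one of 9 cholangiocyte markers called, and it rose by 1.35 (SE 0.21, 9.52, 9.31, 9.14, 9.07 and 8.94 at 50 mg/kg, against 7.84, 8.03, 7.65 and 7.85 at 0 mg/kg), while the list's median was -0.07 and 1 member fell when the averaged controls were dropped. The receptor genes themselves did not pass the test, with Nr1i3, which encodes CAR, at -0.64 (interval -1.19 to -0.09, adjusted p = 0.21) and Nr1i2, which encodes PXR, at -0.24 (adjusted p = 0.62).

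Levels across the doses of BDE-47 are given for a few genes, and replicate 3 at 15 and at 50 mg/kg are near-identical arrays. Cyp2c7 averaged 8.62 ± 0.98, 8.35 ± 0.98, 13.14 ± 0.32 and 13.49 ± 0.12 at 0, 0.1, 15 and 50 mg/kg, and Ugt2b1 averaged 12.37 ± 0.13, 12.37 ± 0.22, 13.42 ± 0.10 and 13.39 ± 0.07 (SD, n = 4, 5, 5 and 5). For Abcg5 the means were 8.56 ± 0.16, 8.44 ± 0.60, 6.76 ± 0.65 and 5.89 ± 0.41, and for Hal 8.79 ± 0.47, 8.87 ± 0.18, 7.81 ± 0.40 and 7.59 ± 0.40. Against the shared controls 117 genes were called at 15 mg/kg (0.823%) and 0 at 0.1 mg/kg (457 at an unadjusted p below 0.05). The step between 50 and 15 mg/kg had 0 calls by limma, and 427 genes had an unadjusted p below 0.05. Both this count and the 457 at 0.1 mg/kg are less than the share of 0.05 of all genes that no change at all would give. The lowest p-values were those of Prss8, which encodes prostasin, a membrane serine protease (0.86, interval 0.52 to 1.20, adjusted p = 0.066), and of Fbxo27, an F-box protein gene (0.89, interval 0.51 to 1.27, adjusted p = 0.12). Cyp1a1 stood 1.16 higher at 50 than at 15 mg/kg (interval 0.02 to 2.29) and Hao2 1.09 higher (interval 0.36 to 1.82), both unadjusted intervals, whereas Ugt2b1 stood at -0.04 (interval -0.27 to 0.20). Of the CAR and PXR targets, Aldh1a1 stood 0.34 higher (interval 0.04 to 0.64) and Ces2c 0.45 higher (interval -0.02 to 0.93). The pair of near-identical arrays lies across this step: 5 genes were called when replicate 3 at 15 mg/kg was dropped and 2 when replicate 3 at 50 mg/kg was.

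**Figure D4:**
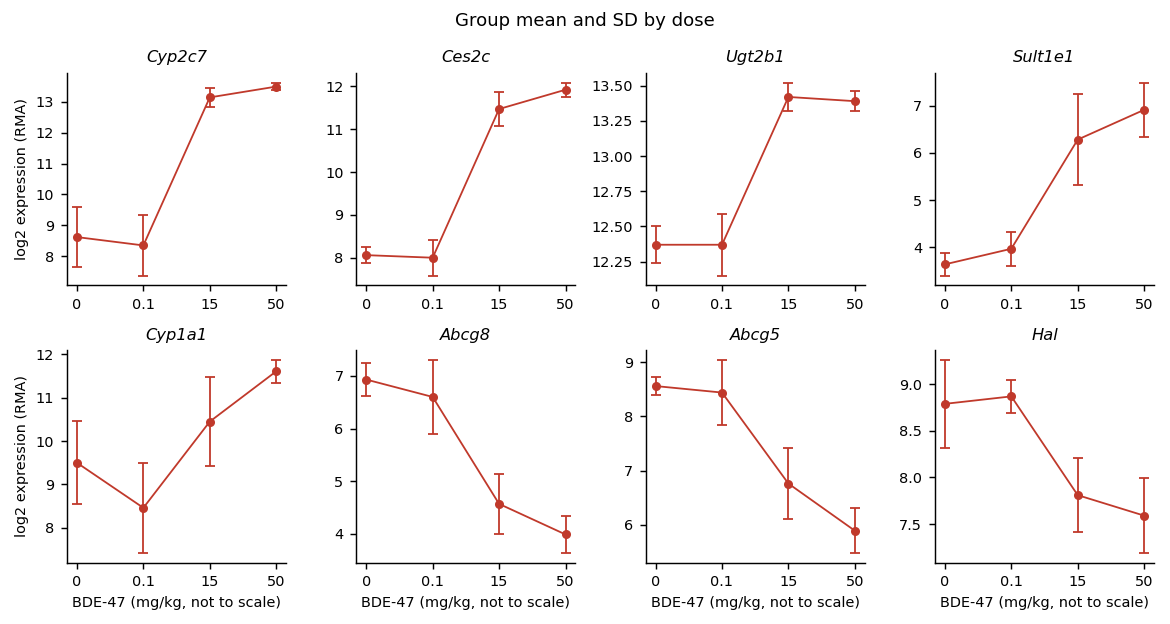
Group mean and SD of log2 expression (RMA) at 0, 0.1, 15 and 50 mg/kg of BDE-47 (n = 4, 5, 5 and 5) for 8 genes, with doses spaced evenly and not to scale. Ugt2b1 is level between 15 and 50 mg/kg at 13.42 and 13.39, and the means of Abcg8, Abcg5 and Hal are lower at 15 and 50 mg/kg than at 0 and 0.1 mg/kg.

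The response at 50 mg/kg was set beside that to phenobarbital at 45 mg/kg, a classic CAR activator, each against its own controls. With phenobarbital 384 genes were called (2.7%), 1.38% risen and 1.32% fallen, and 205 were called in both with the same direction in each of them, which is 35.8% of the BDE-47 list and 53.4% of the phenobarbital list. The difference between the responses had an unadjusted p below 0.05 in 605 genes, less than the share of 0.05 of all genes that no difference at all would give. It was called in 0 genes, so none of the contrasts that follow passed the test over all genes. Cyp7a1 stood at 0.53 with BDE-47 and -2.31 with phenobarbital (difference 2.84, adjusted p = 0.12), and Lyplal1, a lysophospholipase-like gene, at 0.59 and 0.06 (difference 0.53, interval 0.30 to 0.75, adjusted p = 0.12). Gpx2 stood at 2.65 and 0.22 and Hao2 at 2.23 and 0.19 (adjusted p of the difference 0.86 and 0.49). For Ces2c, at 3.86 and 3.81, the interval of the difference was -0.64 to 0.75, and for Cyp3a23-3a1, at 0.89 and 1.01, it was -0.44 to 0.20.

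Set beside DE-71 at 50 mg/kg, the mixture that contains BDE-47 with other congeners, 286 genes were called for both agents with the same direction in each, which is 49.9% of the BDE-47 list and 19.8% of the 1448 genes called for DE-71 (10.2% of those tested, 4.83% risen and 5.35% fallen). Without DE-71 50 mg/kg replicate 2 388 genes were called for DE-71 and 174 were shared, or 30.4% of the BDE-47 and 44.8% of the DE-71 list. The response to DE-71 was higher than that to BDE-47 in 15 genes and lower in 2 (0.106% and 0.0141% of genes, 0.12% in all). The AhR genes Cyp1a1 and Cyp1a2 stood at 6.28 and 1.31 with DE-71 and at 2.11 and -0.26 with BDE-47 (differences 4.17, interval 2.47 to 5.88, adjusted p = 0.017, and 1.57, interval 1.10 to 2.05, adjusted p = 0.00015). The immune genes Cd74 and C1qc stood at 0.90 and 0.21 with DE-71 and at -1.29 and -0.73 with BDE-47 (differences 2.20 and 0.94, adjusted p = 0.03 each). Prf1, perforin, and Ccl5, a chemokine of T cells, were the others of lowest p with a higher response to DE-71, along with Pih1d1, and Rybp and Abhd11 had a lower one. When DE-71 50 mg/kg replicate 4, the array of doubtful dose, was dropped, 71 genes had a called difference. Without DE-71 50 mg/kg replicate 2 only Cyp1a2 and Prf1 kept a called difference, and with only the samples of these 4 groups in the fit 0 genes were called. Prf1 lay below the array median in every BDE-47 sample at 50 and 0 mg/kg, where levels may be near background. For Ces2c, at 2.85 with DE-71 and 3.86 with BDE-47, the difference of -1.01 (interval -1.73 to -0.30, adjusted p = 0.29) did not pass the test, nor did those for Abcg8 and Abcg5 (1.14 and 1.05, adjusted p = 0.47 and 0.48).

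**Figure D5:**
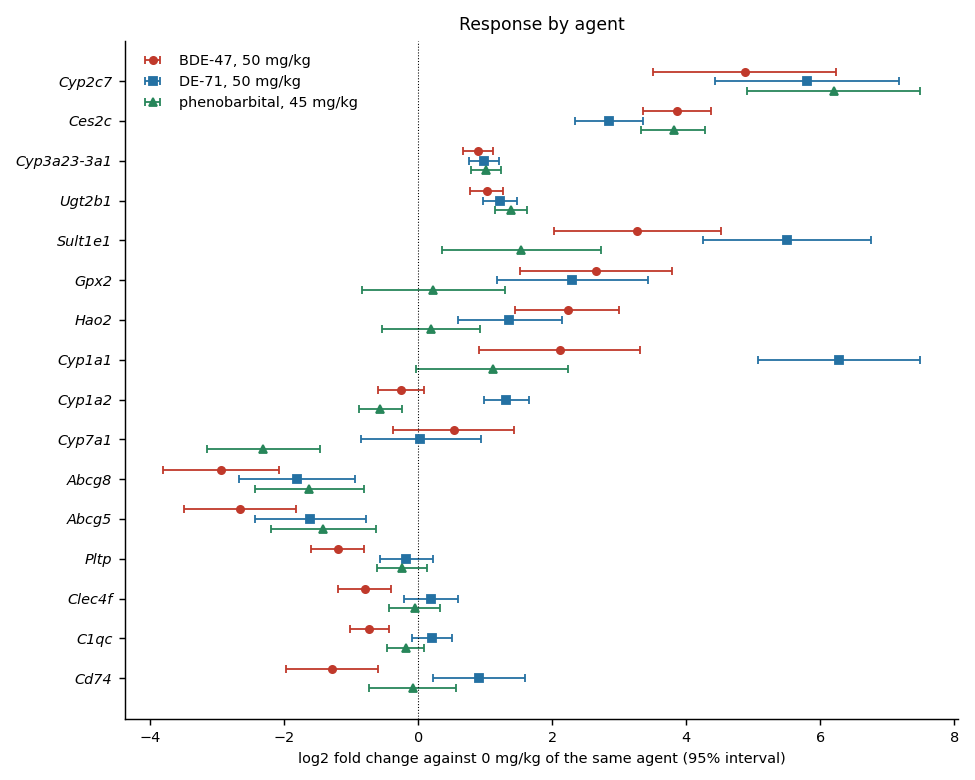
Log2 fold change against 0 mg/kg of the same agent for BDE-47 at 50 mg/kg (red circles), DE-71 at 50 mg/kg (blue squares) and phenobarbital at 45 mg/kg (green triangles), with 95% confidence intervals from limma, for 16 genes. Cyp1a1 stands at 6.28 with DE-71 and 2.11 with BDE-47, and Cyp7a1 at -2.31 with phenobarbital and 0.53 with BDE-47.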

How the data were processed

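The authors deposited log2 expression values per probe set, made with RMA (version not given in the sources used here), per the submitters' processing notes; 31099 probe sets were in the table. Of the 20826 probe sets with 1 gene symbol in the platform annotation, the brightest on average across the 74 arrays stood for its gene, giving 14217 genes. Probe sets with several symbols (436) or none (9780) and 57 control probe sets were left out, and no filter on dim genes was used.

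Arrays of 1 group that were near-identical (root mean square difference under 0.3 log2 units) were averaged, leaving 72 samples. A linear model with 15 group means was fitted with limma 3.58.1 in R 4.3.3 (lmFit, eBayes, 57 residual and 5 prior degrees of freedom). P-values are two-sided and adjusted by Benjamini-Hochberg within each contrast, and genes were called at an adjusted p below 0.05. Rose and fell refer to called genes. Intervals are 95% and unadjusted. The fit was tested on simulated data. The number of arrays limits the precision.

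The comparison, the 45 gene lists (1024 of 1213 entries measured) and the alternatives were chosen with earlier results of these data known. The rule for named genes takes the 12 largest rises and 12 largest falls without overlap, up to 4 called members of each list per direction in order of p, or the 2 of lowest p in a list without calls, a list of index genes, and the genes of lowest p between doses or agents. Beyond it, and after their values were seen, the text names Alb, Scd, Xist, Blvrb, Cyp2a1, Ust5r, Cd68, Cd163, Lyz2, Mrc1 and the amino acid genes Arg1, Ass1, Cbs, Cdo1, Cps1, Gls2, Gnmt, Mat1a, Nags, Otc, Prodh, Prodh2, Sdsl and Slc25a15. Replicate numbers were not used as pairs, because same-numbered samples did not deviate together (correlations -0.15 to 0). Alternatives were other scalings, probe set choices, a filter on dim genes, other sample sets and leaving out each sample. All agents were deposited in 1 table, and each agent's doses were set against that agent's own 0 mg/kg arrays.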

Additional observations from a re-analysis of the deposited data

Results flagged for a closer look

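In 19 of 284 groups of 4 or 5 samples examined, over the genes named here, 1 sample lay far from the rest by Dixon's criterion, which chance meets in about 1 of 20 groups. At 50 mg/kg, replicate 1 stood above the others in Asl (9.70 log2 units) and below them in Nupr1 (6.88). Replicate 2 stood above in Cdo1 (12.86) and Nr1i3 (7.44) and below in Ugt2b10 (11.65). Replicate 3, the near-identical partner of a 15 mg/kg array, stood above in Qpct (5.55) and Rprm (6.57) and below in Gstt3 (11.95) and Nqo1 (9.18). Replicate 4 stood below in Hsd17b6 (6.62) and replicate 5 below in Mrc1 (8.96) and Akr7a2 (10.07). At 0 mg/kg, replicate 5 stood above the other controls in Cyp2c7 (10.09) and Insig2 (10.49) and below them in Pc (9.13) and Prf1 (3.46). Replicate 1 stood above in Akr7a2 (9.65) and replicate 2 in Cidea (5.45), and the averaged replicates 3 and 4 stood below in Dio1 (6.61).

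In 9 of the named genes the difference between the responses to DE-71 and to BDE-47 at 50 mg/kg was called (limma, on the log2 scale). The naming rule takes the genes of lowest p in this contrast, so the count follows in part from that choice. With only the samples of these groups in the fit 0 genes were called, and without DE-71 50 mg/kg replicate 2 only Cyp1a2 and Prf1 were. It was higher with DE-71 in Cyp1a1 (4.17), Cd74 (2.20), Ccl5 (1.98), Cyp1a2 (1.57), Prf1 (1.26), C1qc (0.94) and Pih1d1 (0.51), and lower in Rybp (-0.80) and Abhd11 (-0.52).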

How the results depend on the processing

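For 50 against 0 mg/kg, 573 genes were called (334 risen, 239 fallen). Treating all arrays as separate samples gave 991 (585 and 406). Leaving out every near-identical array, an alternative chosen after seeing the data, gave 309 (165 and 144), 288 of them among the 573. Leaving out 1 sample gave 359 to 615 genes, 189 to 337 risen and 130 to 278 fallen. The other alternatives kept the count within 1.5 times. For 50 against 15 mg/kg, leaving out 1 sample gave 0 to 5 genes. The difference between DE-71 and BDE-47, 17 genes, became 0 with only the samples of the groups compared, 38 with all arrays separate, 11 with each array centred on its median and 2 to 71 with 1 sample left out. The difference between BDE-47 and phenobarbital, 0 genes, became 3 with only the groups compared, 1 with all arrays separate and 0 to 1 with 1 sample left out. The causes were not tested.

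With the replicate number as a block, 621 genes were called for 50 against 0 mg/kg (324 and 297) and 40 for DE-71 against BDE-47, but the numbers do not pair the samples: deviations of same-numbered samples correlated at -0.15, 0, -0.1 and -0.09. Of the named genes, 142 in all, 115 were called, 70 of them under every alternative that tested them and 92 under every such one that keeps all samples. Genes removed by the filter on dim genes were not tested under it. Where the main fit or the alternative called the gene, 0 changed direction. Signs did change in uncalled genes, as in Nqo1 (0.08, down to -0.15 with 1 sample left out) and Dio1 (0.18, down to -0.04). Levels below the array median may be near background, which limits the folds of Abcg8, Cltrn, Sult1e1, Hao2, Gpx2, Gadd45b and Prf1 among others.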

Other observations

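Further lists at 50 against 0 mg/kg are set beside the 4.03% of all genes called. Of 8 carboxylesterases and epoxide hydrolases 2 rose, Ces2c and Ephx1, and 1 fell, Aadac, arylacetamide deacetylase (-0.40). Of 36 flavin monooxygenases, aldehyde and ketone enzymes 4 rose and 2 fell: Aox1, aldehyde oxidase (0.72), Akr7a2, an aldo-keto reductase (0.66), and Cbr4, a carbonyl reductase (0.47), rose beside Aldh1a1, and Fmo5, a flavin monooxygenase (-0.79), and Aldh1b1, a mitochondrial aldehyde dehydrogenase (-0.85), fell, and 3 rose when either 50 mg/kg replicate 3 or the averaged controls were dropped. Of 34 interferon-stimulated genes 1 rose, Isg20, a nuclease (0.61), and the median was 0.04. In both Cbr4 and Isg20 the groups overlapped, and each call was kept in 4 of 9 fits with 1 sample left out. Of 19 clock genes 1 fell, Nfil3, a repressor of clock output (-0.61), and of 33 nuclear receptors and partners 1 fell, Nr2f6 (-0.45), whose 4 other probe sets stood at -0.02 to 0.11 and were not called. Both of these falls were lost when the averaged controls were dropped. Of 13 pancreas and gut markers 0 were called.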
